A study of Mus musculus with 20 samples.

Results

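The comparison described here set lineage-labelled YFP+ keratinocytes of the mouse epidermis, which carry high Thy1 on their surface, against keratinocytes without Thy1, by bulk RNA-seq of sorted cells. It holds 3 YFP+ and 4 Thy1- libraries of the 20 in the series. All genes with a normalized count of at least 10 in at least 3 of these 7 libraries were taken. This left 14596 of the 53380 genes listed. The choice did not use the fitted difference. A gene below 10 in every Thy1- library, however, passed only if all 3 YFP+ libraries reached 10, which fixed its direction and non-overlap beforehand. Such genes named below include *Stfa1*, *Stfa2*, *Gm5416*, *Gsdmc2*, *Sprr2a3*, *Mmp1b*, *Nppb* and *Lgi2*. A gene below 10 in every YFP+ library likewise passed only through at least 3 Thy1- libraries. The methods describe the YFP+ cells as integrin α6+, Sca1+, Thy1hi and YFP+, from mice of the cross Thy1-CreERT2;R26EYFP after tamoxifen, and the Thy1- cells as integrin α6+, Sca1+ and Thy1-, from wild-type C57BL/6J mice. The sample labels instead give Thy1.2CreERT2-Rosa26-EYFP and no treatment for both populations, ages of 17, 18 and 19 weeks for YFP+ and of 24, 25, 26 and 27 weeks for Thy1-, and ScaI- for the YFP+ cells beside a title with ScaI, while the design text of the series says that the mice were 8 weeks old. In this line the *Thy1* promoter of the transgene drives both the Cre recombinase and a YFP of its own, which the study detected in brain but not in epidermal cells. Cre switches on a further YFP at the Rosa26 locus. Thy1 on the surface, the transgenes, tamoxifen, the mice and any difference in age therefore changed together between the populations, and their parts cannot be told apart. The legends count 3 mice for YFP+ and 4 for Thy1- cells, as many as there are libraries. A pool of 5 mice is mentioned elsewhere, and the time from tamoxifen to the sort is not given in the sources used here. The spread between libraries may thus be technical in part. In the main test this spread was estimated for each gene from all 20 libraries of 5 populations. The p-values and standard errors therefore do not rest on these 7 libraries alone.

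Basal keratinocytes sit on the basement membrane, divide, and feed the spinous, granular and cornified layers above. Integrin α6 marks their attachment to that membrane and Sca1 (*Ly6a*) marks the part of the epidermis between hair follicles. Thy1, or CD90, is a GPI-linked surface glycoprotein best known from T cells and fibroblasts. After wounding or in inflamed skin, keratinocytes take on an activated state, in which keratin 6, stefins, proteases, matrix proteins and growth factors are made and division speeds up.

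The 7 libraries held between 7798195 and 12982393 reads on genes, of which 18.6% to 37.1% fell on the ribosomal RNA gene *Rn45s*. The number of genes with at least 1 read was 23691, 28758 and 20221 in YFP+ replicates 1, 2 and 3, against 30457, 32129, 28836 and 21150 in Thy1- replicates 1 to 4. Thy1- replicate 4 stood apart from the other Thy1- libraries: its log2 values correlated with theirs at 0.896 to 0.934, while those correlated with each other at 0.961 to 0.966, and its nearest library was replicate 4 of Thy1hi cells, at 0.964. YFP+ replicate 2 lay as close to some Thy1- libraries (highest r 0.958) as to YFP+ replicate 1 (0.953). The Y-linked gene *Ddx3y* stood at 577, 6.97 and 0.99 in YFP+ replicates 1, 2 and 3, and at 29.2, 5.79, 4.73 and 193 in Thy1- replicates 1 to 4. *Xist*, also sex-linked, stood at 62.8, 14282 and 16375 in the YFP+ and at 17184, 16441, 19769 and 7164 in the Thy1- libraries. The sexes were thus not balanced between libraries. Thy1- replicate 4 held reads of both genes, at 193 and 7164. Whether it came from more than 1 mouse was not tested. The labels give 2 sequencing batches without saying which library belonged to which, so no value within a batch can be given.

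Both populations had the keratins of basal cells. *Krt14* stood at 93750, 68780 and 117463 in the YFP+ libraries and at 40609, 27508, 33318 and 38378 in the Thy1- libraries, and *Krt5* at 44883 to 79559 against 22526 to 43685. *Itga6*, which encodes integrin α6, was at 6917 to 12017 and 4562 to 6564. *Ly6a*, the gene for Sca1, stood at 318, 200 and 401 in YFP+ cells and at 97.3, 94.9, 104 and 148 in Thy1- cells. Transcripts of Sca1 were thus present in the cells whose label reads ScaI-, at values above those of every Thy1- library. *Thy1* itself (chromosome 9, 44043384 to 44048579, mm10), on whose product the cells were sorted, stood at 694, 468 and 1546 against 77.8, 66.0, 63.1 and 69.7, a difference of 3.51 ± 0.41 on the log2 scale (SE). As the sort used Thy1, this checks the labels and is no finding. All differences here are YFP+ minus Thy1-, on the scale of log2(normalized count + 1), which understates changes of genes near 0, and SE is the standard error of the fit.

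Of the 14596 genes tested, 119 (0.815%) were higher and 44 (0.301%) were lower in YFP+ cells, together 163 (1.12%), with limma at an adjusted p under 0.05, and 2104 had an unadjusted p under 0.05. The differences upward were the larger ones: 88 of the 119 genes exceeded 2-fold and 19 exceeded 8-fold, against 34 and 1 of the 44 lower genes. All 119 higher genes and 43 of the 44 lower genes were protein-coding, as were 84.7% of all genes tested. Every YFP+ library lay above every Thy1- library at 1312 genes (8.99%) and below at 880 genes (6.03%), which included 118 of the 119 and 41 of the 44 genes called. In sorted bulk RNA, a larger share of cells of one kind and more RNA per cell cannot be told apart. Rescaled to the same total, which moved the median of all genes from -0.03 to -0.11, 37 genes were called higher and 24 lower, so that 60.7% of calls were higher, against 73.0%. With *Rn45s* left out of that total, an alternative added after the data were seen, the counts were 103 and 42. The counts depended on single libraries: 16 genes were called higher without YFP+ replicate 1, 173 without replicate 2 and 8 without replicate 3, and 54, 68, 15 and 93 without Thy1- replicates 1, 2, 3 and 4. Lower calls numbered 3, 144 and 3 without YFP+ replicates 1, 2 and 3, and 23, 18, 8 and 22 without Thy1- replicates 1 to 4. A call held in each of these 7 fits for 9 genes: *Thy1*, *Stfa1*, *Gsta4*, *Lgi2*, *Tspan3*, *Epb41l3* and *Entpd7* among the higher, and *Slco2b1* and *Rgs10* among the lower. Every other call named here was lost in at least 1 of the 7 fits, mostly without YFP+ replicate 1 or 3 or without Thy1- replicate 3.

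**Figure D1:**
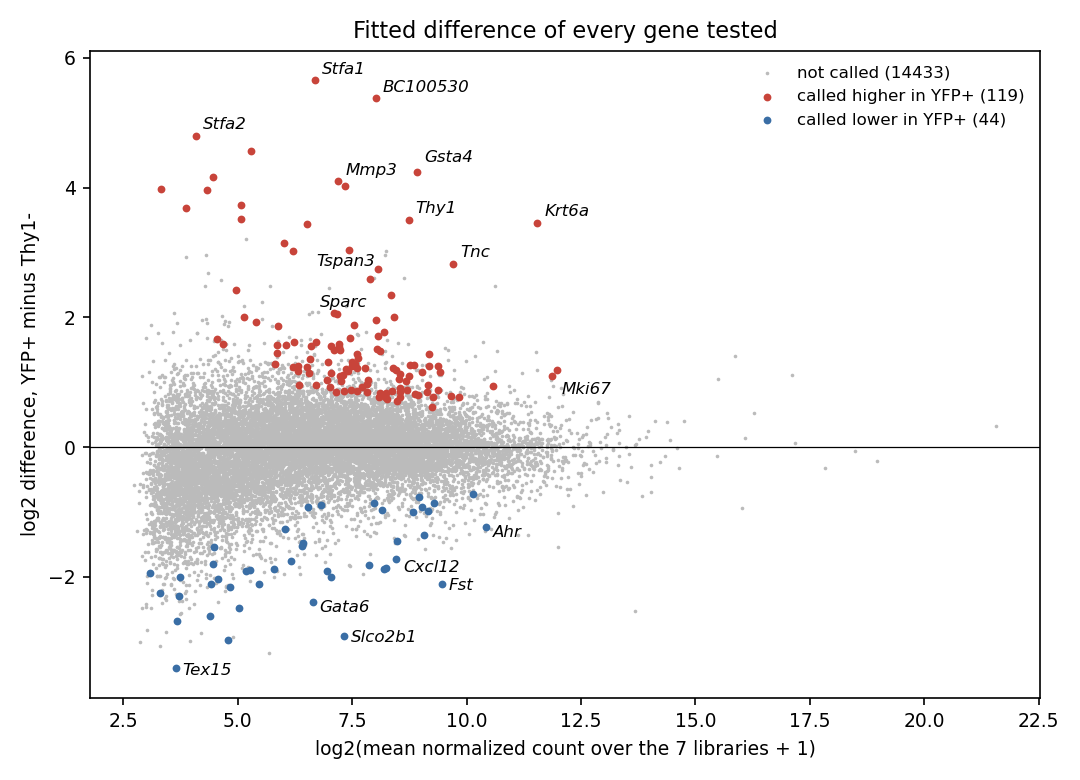
Each point is 1 of the 14596 genes tested, with the log2 of its mean normalized count over the 7 libraries (plus 1) on the horizontal axis and the fitted log2 difference, YFP+ minus Thy1-, on the vertical axis. The 119 genes called higher reach 5.66 (*Stfa1*), and the 44 called lower reach -3.41 (*Tex15*). Fitted values of genes with at most 3 reads in every Thy1- library, such as *Stfa2*, depend on the added 1.

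The stefin A genes showed the largest differences of the comparison. Stefins are small cytosolic inhibitors of cysteine proteases such as cathepsins, and the mouse carries a row of near-identical stefin A copies on chromosome 16, so counts may be split among copies and values of single members are uncertain. Of the 13 stefin and cystatin genes in the table, 8 passed the minimum, and 5 of the 8 were called higher, all from the chromosome 16 row, while *Cstb*, *Cst3* and *Cst6* were not called. Among all genes tested 0.815% were called higher. Of the 5 called, *Stfa1*, *Stfa2* and *Gm5416* passed the minimum only through the YFP+ libraries. The promoters of 4 called members are shown first, beside that of *Stfa2l1*, a copy of the same row with almost no reads, so that they can be set against each other. They run from 250 bases before to 50 bases after the annotated start in RefSeq (GRCm38.p6), 5′ to 3′ along each gene. Capitals mark TTTAAA and TGANTCA, the motifs searched on both strands. *Gm5416* was matched through its RefSeq synonym, and no entry was found under the name *BC100530*.
Stfa1, chr16:36276898-36277197, plus strand: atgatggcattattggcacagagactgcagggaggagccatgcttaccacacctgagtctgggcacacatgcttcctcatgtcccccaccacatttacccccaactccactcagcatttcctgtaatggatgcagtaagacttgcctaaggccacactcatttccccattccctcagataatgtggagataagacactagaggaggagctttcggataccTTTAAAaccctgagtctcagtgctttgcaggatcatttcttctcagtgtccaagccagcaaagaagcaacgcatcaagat
Stfa2, chr16:36408314-36408613, minus strand: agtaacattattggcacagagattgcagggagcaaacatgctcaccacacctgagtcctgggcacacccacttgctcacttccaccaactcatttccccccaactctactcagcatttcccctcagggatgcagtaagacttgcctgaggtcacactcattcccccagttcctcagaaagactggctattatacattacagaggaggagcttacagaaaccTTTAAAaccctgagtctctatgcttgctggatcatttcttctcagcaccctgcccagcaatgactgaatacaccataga
Stfa3, chr16:36455343-36455642, minus strand: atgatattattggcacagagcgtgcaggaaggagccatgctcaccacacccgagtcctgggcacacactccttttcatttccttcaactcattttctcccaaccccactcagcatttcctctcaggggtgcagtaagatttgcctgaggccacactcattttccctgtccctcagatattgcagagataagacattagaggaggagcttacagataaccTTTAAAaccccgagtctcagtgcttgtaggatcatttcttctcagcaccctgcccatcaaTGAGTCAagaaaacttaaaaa
Gm5416, chr16:36210153-36210452, plus strand: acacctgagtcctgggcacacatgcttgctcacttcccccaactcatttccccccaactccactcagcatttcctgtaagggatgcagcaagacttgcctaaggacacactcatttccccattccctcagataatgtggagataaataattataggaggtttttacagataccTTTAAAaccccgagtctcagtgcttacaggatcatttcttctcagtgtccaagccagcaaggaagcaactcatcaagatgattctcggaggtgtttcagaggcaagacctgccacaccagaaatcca
Stfa2l1, chr16:36156561-36156860, plus strand: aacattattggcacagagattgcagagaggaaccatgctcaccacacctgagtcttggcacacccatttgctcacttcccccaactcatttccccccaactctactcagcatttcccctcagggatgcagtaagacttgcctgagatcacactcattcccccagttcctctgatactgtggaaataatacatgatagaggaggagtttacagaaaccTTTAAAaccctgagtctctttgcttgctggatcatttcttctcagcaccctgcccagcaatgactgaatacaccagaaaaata
TTTAAA occurred once in each of the 5 promoters, beginning 30, 29, 31 and 33 bases before the annotated start of *Stfa1*, *Stfa2*, *Stfa3* and *Stfa2l1* and 77 bases before that of *Gm5416*, and 13.2% of the 32851 promoters in the table hold it. TGANTCA, the letters bound by AP-1 factors, occurred only in *Stfa3*, where it starts 29 bases after the annotated start, and is held by 7.81% of all promoters. The *Stfa2* and *Stfa2l1* promoters were identical over 90.5% of their alignment, the other pairs over 60.5% to 81.0%.

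*Stfa1* (chromosome 16, 36277148 to 36285371) stood at 251, 245 and 198 normalized counts in the YFP+ libraries and at 8.51, 5.79, 1.58 and 1.64 in the Thy1- libraries, a log2 difference of 5.66 ± 0.79 (limma adjusted p = 0.00166). *BC100530* (36359382 to 36367748), a stefin-like gene of the same row, stood at 568, 499 and 680 against 6.08, 22.0, 17.4 and 11.5, a difference of 5.38 ± 0.89 (limma adjusted p = 0.0064). For both genes the populations were far apart, with no YFP+ library near any Thy1- library. The filter fixed the non-overlap of *Stfa1*, but not that of *BC100530*. *Stfa3* (36450537 to 36455392) stood at 290, 326 and 438 against 14.6, 27.8, 22.9 and 18.0, a difference of 4.03 ± 0.68. The calls of *BC100530* and *Stfa3* were lost without YFP+ replicate 3, at adjusted p = 0.0616 and 0.07. *Stfa2* (36403946 to 36408363) had values of 53.8, 34.1 and 21.8 in YFP+ cells and at most 2 reads in any Thy1- library, which makes it at least 12.2-fold higher against a floor of 3 reads per library. *Gm5416* (36210403 to 36217788) stood at 20.9, 20.9 and 18.8 against values of 0 in 3 Thy1- libraries and 2.31 in the fourth, at least 6.77-fold higher. *Stfa2l1* had no read in the YFP+ libraries and at most 1 read in any Thy1- library, and *BC117090* had 6 to 27 reads in YFP+ and 0 to 5 in Thy1- libraries, below the minimum for a test. The median log2 difference of the 8 tested members was 4.0, or 3.19 with *Stfa2* and *Gm5416* set at their floors, against -0.03 over all genes tested, and it ranged from 1.81 to 4.79 over 22 alternatives. It includes *Stfa1*, *Stfa2* and *Gm5416*, whose direction the filter had fixed.

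**Figure D2:**
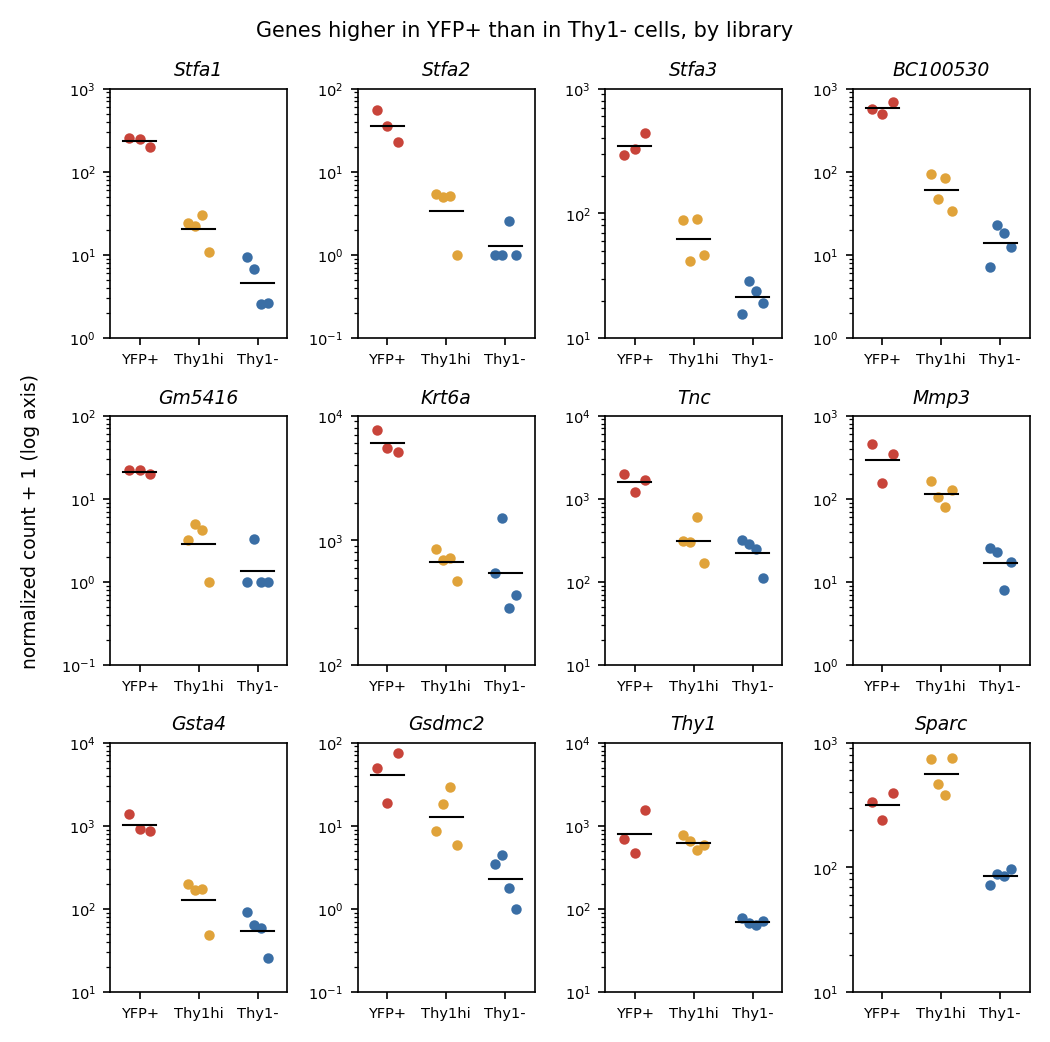
Each panel gives 1 gene in the 3 YFP+, 4 Thy1hi and 4 Thy1- libraries, as the normalized count plus 1 on a log axis whose range differs between panels, and the bar is the geometric mean. In all 12 panels every YFP+ library lies above every Thy1- library, which the filter had fixed for *Stfa1*, *Stfa2*, *Gm5416* and *Gsdmc2*. For *Stfa1*, *BC100530* and *Krt6a* the Thy1hi libraries lie below the YFP+ libraries, and for *Sparc* 3 of the 4 Thy1hi libraries lie above every YFP+ library.

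*Krt6a* (chromosome 15), the keratin switched on in wounded epidermis and kept in the companion layer of the hair follicle, stood at 7616, 5537 and 5089 in YFP+ and at 551, 1516, 287 and 366 in Thy1- cells, a log2 difference of 3.46 ± 0.62 (limma adjusted p = 0.012). Thy1- replicate 2 held the highest value of its group and still lay well below the YFP+ libraries. *Mmp3*, a secreted metalloproteinase also called stromelysin-1, stood at 451, 155 and 346 against 24.3, 22.0, 7.10 and 16.4 (4.10 ± 0.87). *Tnc*, which encodes the matricellular protein tenascin-C of healing wounds, stood at 1977, 1220 and 1679 against 319, 287, 248 and 111 (2.82 ± 0.58). *Pdpn*, the surface mucin podoplanin, rose by 3.14 ± 0.65, and *Has3*, a hyaluronan synthase, by 2.34 ± 0.47. *Mmp1b*, a collagenase-like gene with a close copy, stood at 59.8, 18.6 and 45.6 against 1.22, 8.10, 0.79 and 0. *Nppb*, the gene for a natriuretic peptide, stood at 104, 36.4 and 68.4 against 1.22 to 8.10 (3.73 ± 0.85). *Sprr2a3*, a cornified envelope precursor with several close copies, had at most 3 reads in any Thy1- library and 14.9, 22.4 and 52.5 in YFP+ cells, at least 10.0-fold higher.

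Of 39 stress and wound genes in the table, 24 were tested, and 2 (*Krt6a* and *Mmp3*) were called higher and none lower. At 9 of the 24 every YFP+ library lay above every Thy1- library and at none below. Over all genes tested 8.99% lay above and 6.03% below in this way, and 0.815% were called higher. The median difference of the 24 was 0.59, with a range from 0.33 to 0.72 over the alternatives. *Krt6b* stood at 934, 314 and 485 against 52.3, 250 and values of 30.0 and 41.0, with 3.02 ± 1.04 and an adjusted p of 0.165. *Mmp13* (3.22 ± 0.99, adjusted p = 0.116), *Il24* (2.48 ± 0.68, adjusted p = 0.0762) and *Areg* (1.65 ± 0.53, adjusted p = 0.134) did not overlap between the populations and did not pass limma either, and they were picked out after their values were seen. *Krt16* and *Krt17*, keratins that pair with keratin 6 and were also picked out afterwards, had fitted differences of 0.15 ± 1.01 and -0.45 ± 0.47, and their libraries overlapped.

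Gasdermins are pore-forming proteins, and those of the C group are expressed in epithelia. *Gsdmc* stood at 137, 85.9 and 217 in YFP+ cells against 8.51, 34.7, 17.4 and 12.3 (3.02 ± 0.73, limma adjusted p = 0.0489). *Gsdmc2* had 48.8, 17.8 and 73.3 against at most 3 reads in each Thy1- library, at least 15.6-fold higher, though these copies share sequence. Of 9 gasdermin genes listed, in a list drawn up after the values were seen, 5 were tested and the other 3 were not called. Among all genes tested 0.815% were called higher and 0.301% lower. The median of the 5 was -0.16 and ran from -0.54 to 1.43 over the alternatives. *Mlkl*, which carries out necroptosis, stood at 65.8, 55.0 and 94.1 against 14.8 to 22.0 (1.92 ± 0.37).

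*Gsta4*, the glutathione S-transferase that conjugates 4-hydroxynonenal, stood at 1368, 920 and 870 in YFP+ libraries and at 91.2, 63.6, 57.6 and 24.6 in Thy1- libraries, a log2 difference of 4.24 ± 0.67 (limma adjusted p = 0.00458). Its populations did not come near each other in any library. *Akr1b8*, an aldo-keto reductase, stood at 360, 249 and 424 against 59.6, 49.8, 30.8 and 27.9 (3.04 ± 0.65). *Ces2g*, a carboxylesterase, rose by 2.60 ± 0.50 and *G6pdx*, which supplies NADPH, by 1.10 ± 0.25. Of 34 genes of glutathione metabolism, aldo-keto reduction and the NRF2 response, a list drawn up after the values were seen, 28 were tested, 4 were called higher and none lower, with a median of 0.46. Of the 28, 19 had a higher and 9 a lower fitted value, and every YFP+ library lay above every Thy1- library at 10 and below at 2. Over all genes tested 8.99% lay above and 6.03% below in this way, and 0.815% were called higher. Other metabolic genes chosen after the fact were *Xdh* (xanthine dehydrogenase, 1.25 ± 0.24), *Ass1* (argininosuccinate synthase, 1.69 ± 0.30) and *Cad* (the first enzymes of pyrimidine synthesis, 1.13 ± 0.22). *Sh2d5* and *Lgi2*, the other genes among the 15 largest rises, differed by 3.44 ± 0.76 and 3.52 ± 0.48.

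Cell cycle genes were higher as a group. Of 40 tested, 11 were called higher and none lower, and 31 had every YFP+ library above every Thy1- library and none below. Over all genes tested 0.815% were called higher and 8.99% lay above in this way. The median log2 difference of the 40 was 1.04, with 0.90 to 1.13 over the alternatives. *Mki67*, the proliferation antigen Ki-67, stood at 3977, 4646 and 7526 in YFP+ cells against 1940, 3727, 2441 and 1926 in Thy1- cells (1.10 ± 0.26, limma adjusted p = 0.0456). *Cdk1*, the kinase that starts mitosis, stood at 199, 226 and 278 against 73.0, 110, 63.1 and 77.0 (1.54 ± 0.32). *Rrm2*, which makes deoxyribonucleotides in S phase, stood at 291, 193 and 222 against 57.2 to 105 (1.59 ± 0.31). *Ccna2*, *Ccnb1* and *Nusap1* rose by 1.51, 1.44 and 1.28, *Ube2c*, a ubiquitin-conjugating enzyme of mitotic exit, by 1.62 ± 0.38, and *Top2a*, the topoisomerase of dividing cells, by 0.94 ± 0.22. YFP+ replicate 3 held the highest value of *Mki67*, *Cdk1*, *Ccna2*, *Ccnb1* and *Nusap1*. Without it the differences of these 5 ranged from 0.83 (*Mki67*) to 1.41 (*Cdk1*) and none passed limma (adjusted p from 0.155 to 0.305), and without replicate 1 they ranged from 1.29 (*Mki67*) to 1.73 (*Ccna2*) and only *Nusap1* passed. *Rrm2*, highest in replicate 1, was also lost without either library (adjusted p = 0.108 without replicate 3 and 0.121 without replicate 1), at differences of 1.62 and 1.43.

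Genes of chromosome condensation, the kinetochore and the chromosomal passenger complex, listed after the values were seen, went with them: 12 of 26 were called higher and none lower, with a median of 1.02. *Incenp*, a scaffold of the passenger complex, stood at 515, 692 and 870 against 246 to 354 (1.27 ± 0.23), and *Tacc3*, *Cdca8*, *Cdca3*, *Spc24* and *Gmnn* rose by 1.37, 1.5, 1.55, 1.58 and 1.28. Of 55 replication-dependent histone genes listed, 45 were tested, 1 was called (*Hist1h2af*, 1.04 ± 0.25), and 29 had every YFP+ library above every Thy1- library, with a median of 0.81. Over all genes tested 0.815% were called higher and 8.99% lay above in this way. The histone share of reads outside *Rn45s* was 0.119% to 0.172% in YFP+ and 0.0744% to 0.129% in Thy1- libraries, so these ranges overlapped. The labels name an mRNA kit and a total RNA kit without a map to libraries. The part of the kit in the histone values was not tested. Among 13 tested cell cycle inhibitors none was called, and the members with the highest counts were *Btg1*, at 2065, 2607 and 2101 against 2835 to 5002 (-0.72 ± 0.35, limma adjusted p = 0.357), and *Btg2* (-0.44 ± 0.65). By library, the median over the cell cycle list lay 0.85 to 1.34 above the Thy1- mean in YFP+ cells and between -0.23 and 0.36 in single Thy1- libraries. In the 4 Thy1hi libraries it lay at 0.60 to 1.02.

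**Figure D3:**
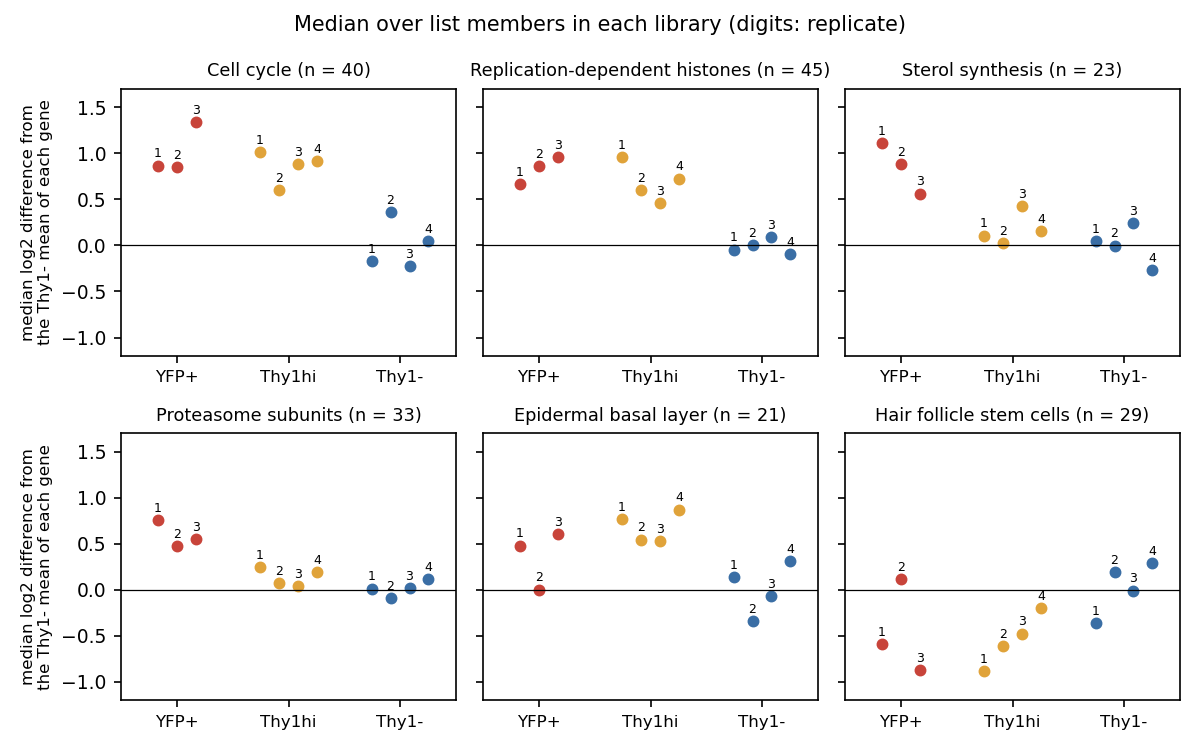
Each panel gives, for 1 gene list, the median over its tested members of the log2 difference from the Thy1- mean of each gene, and each point is 1 library with its replicate number. The cell cycle medians of YFP+ and Thy1hi cells (0.60 to 1.34) lie above those of Thy1- cells (-0.23 to 0.36), whereas sterol and proteasome medians are highest in YFP+ cells. For the basal layer and hair follicle lists YFP+ replicate 2 lies among the Thy1- libraries.

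Several groups of housekeeping and biosynthetic genes moved by smaller steps. Of 33 proteasome subunits, a list also drawn up after the values were seen, 3 were called higher (*Psmc1* by 0.88, *Psmd13* by 0.85 and *Psmc3* by 0.77) and none lower. Every YFP+ library lay above every Thy1- library at 24 of them. Over all genes tested these shares were 0.815% called higher and 8.99% above. *Psmc1*, an ATPase of the regulatory particle, stood at 613, 475 and 589 against 244, 283, 304 and 389. Of 24 genes of N-glycosylation and folding in the endoplasmic reticulum, again listed after the values were seen, 5 were called higher and none lower. *Ddost*, a subunit of the oligosaccharyltransferase, stood at 486, 357 and 467 against 136, 135, 141 and 216 (1.48 ± 0.24, limma adjusted p = 0.0063), and *Rpn2*, *Ostc*, *Mlec* and *Erp44* rose by 0.88, 0.84, 0.96 and 0.71.

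Sterol synthesis genes showed the same direction without a call. None of 23 passed the test, while 17 had every YFP+ library above every Thy1- library and none below, against 8.99% and 6.03% of all genes tested. The median of the 23 was 0.84, with a range from 0.71 to 0.97 over the alternatives. *Hmgcs1*, which commits acetyl-CoA to the mevalonate pathway, stood at 2890, 2730 and 2812 against 1390, 1422, 1802 and 1544 (0.88 ± 0.27, limma adjusted p = 0.117). None of 24 tested interferon-stimulated genes was called, with a median of 0.97, and their level followed single libraries: the median lay 1.79 above the Thy1- mean in YFP+ replicate 3, 0.87 in replicate 1 and 0.03 in replicate 2. *Stat2* stood at 401, 257 and 627 against 144 to 259 and *Irf9* at 386, 281 and 584 against 224 to 369.

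None of 21 tested basal layer genes was called, while 16 had a higher fitted value and the median was 0.39. At 7 of the 21 every YFP+ library lay above every Thy1- library and at none below, against 8.99% and 6.03% of all genes tested, and DESeq2 called 4 of the 21. The structural keratins *Krt14* (1.40 ± 0.47, limma adjusted p = 0.147) and *Krt5* (1.05 ± 0.47, limma adjusted p = 0.299), with *Ly6a* (1.42 ± 0.49), *Itgb4* (0.82 ± 0.34) and *Itga6* (0.69 ± 0.39), were among those 7. Among 54 tested genes of the spinous and granular layers, only *Sprr2a3* was called, and the median was -0.31. Over the alternatives this median ran from -0.79 to 0.18, so it has no firm direction. Of 10 tested genes that the study names for stem cells between hair follicles, none was called and the median was 0.01. *Col17a1*, the hemidesmosomal collagen of basal cells, stood at 31899, 23589 and 41442 against 18040 to 28989 (0.39 ± 0.42), *Klf5*, a transcription factor of epidermal cells, at 2952 to 4033 against 2948 to 5813 (-0.17 ± 0.39), and *Lrig1*, a marker of the upper follicle, at 843, 1030 and 851 against 1148 to 2431 (-0.88 ± 0.24, limma adjusted p = 0.0797).

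Matrix genes split by member. *Sparc* (chromosome 11, 55394500 to 55423183), a calcium-binding matricellular protein, stood at 335, 237 and 392 in YFP+ cells and at 71.8, 87.9, 84.4 and 96.7 in Thy1- cells, a log2 difference of 1.88 ± 0.32 (limma adjusted p = 0.00773). Its libraries did not overlap, and the call was lost without YFP+ replicate 1 (adjusted p = 0.0508) and without replicate 3 (0.0861). *Fbln1*, the matrix protein fibulin-1, stood at 151, 228 and 358 against 41.8 to 82.2 (2.07 ± 0.41). With *Tnc* these were the 3 of 15 tested matricellular genes that rose, none fell, and the median of the list was -0.35, with a range from -0.43 to 0.51 over the alternatives. Over all genes tested 0.815% were called higher and 0.301% lower. *Postn*, periostin, stood at 1863, 2057 and 11026 against 615 to 1906 (1.46 ± 0.67, adjusted p = 0.321), with YFP+ replicate 3 far above the other libraries. Of 35 tested collagens and laminins 2 rose and 1 fell: *Lamb1* by 1.58 ± 0.33, *Col12a1*, a fibril-associated collagen, by 1.25 ± 0.27, and *Col8a1*, a network-forming collagen, with -2.47 ± 0.48. Of 29 tested metalloproteinases and inhibitors *Mmp3* rose and *Adamts9*, which cleaves proteoglycans, fell. The medians of both lists, -0.44 and -0.41, also changed sign in some alternatives, up to 0.04 for each.

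Of the 44 genes lower in YFP+ cells, no list examined held more than 2, the number in the hair follicle stem cell list. *Slco2b1*, an organic anion transporter, stood at 16.9, 61.1 and 29.7 in YFP+ cells against 174, 208, 294 and 330 in Thy1- cells, a difference of -2.91 ± 0.39 (limma adjusted p = 0.00148). *Gata6*, a transcription factor of the sebaceous duct and upper follicle, stood at 17.9, 51.9 and 20.8 against 129, 130, 119 and 223 (-2.39 ± 0.48). *Fst*, which encodes follistatin, a secreted antagonist of activins and BMPs, stood at 162, 391 and 204 against 790, 857, 1402 and 1129 (-2.11 ± 0.45, limma adjusted p = 0.0271). In all of these YFP+ replicate 2 held the highest value of its group and the libraries did not overlap.

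The chemokine genes *Ccl2* and *Cxcl12* fell by 2.11 ± 0.44 and 1.73 ± 0.27. *Cxcl12* stood at 103, 255 and 120 against 374 to 632, and *Ccl2* at 6.98, 18.6 and 18.8 against 40.2 to 89.1. *Adamts9* stood at 28.9, 87.5 and 37.6 against 145, 196, 210 and 161 (-1.92 ± 0.40). *Enpp1*, which makes pyrophosphate, stood at 28.7 to 75.1 against 93.6 to 271 (-2.01 ± 0.42). *Tex15*, a germ cell gene, had the largest fitted fall (-3.41 ± 0.66) at low values, 0, 3.87 and 0 against 7.38 to 30.4. *Rgs4*, a regulator of G protein signalling, stood at 8.97, 6.97 and 0.99 against 32.0 to 54.7 (-2.97 ± 0.55), and its relative *Rgs10* at 25.9, 34.8 and 26.8 against 82.7 to 134 (-1.77 ± 0.25, limma adjusted p = 0.00174). *Tet1*, a DNA demethylation enzyme, stood at 9.97, 10.1 and 4.95 against 21.3 to 54.7 (-2.16 ± 0.40). *Ntrk2*, the receptor of the neurotrophin BDNF, stood at 80.7, 80.5 and 124 against 267 to 375 (-1.82 ± 0.30), and *Ahr*, the aryl hydrocarbon receptor, at 536, 964 and 861 against 1482 to 2387 (-1.24 ± 0.26). The remaining genes among the 15 largest falls (*Slc41a2*, *Apobec3*, *Ggt5*, *Pknox2*, *Slc25a45* and *Rac2*) had fitted differences from -2.61 to -1.95 and stayed below 50 in each of the 7 libraries. The number of genes detected was lower in each YFP+ library than in Thy1- replicates 1, 2 and 3, in YFP+ replicate 2 only by little (28758 against at least 28836). Whether it had a part in these falls at low values was not tested. With the number of genes detected as a covariate, an alternative added after the data were seen, 65 genes were called higher and 35 lower, against 119 and 44 without it.

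**Figure D4:**
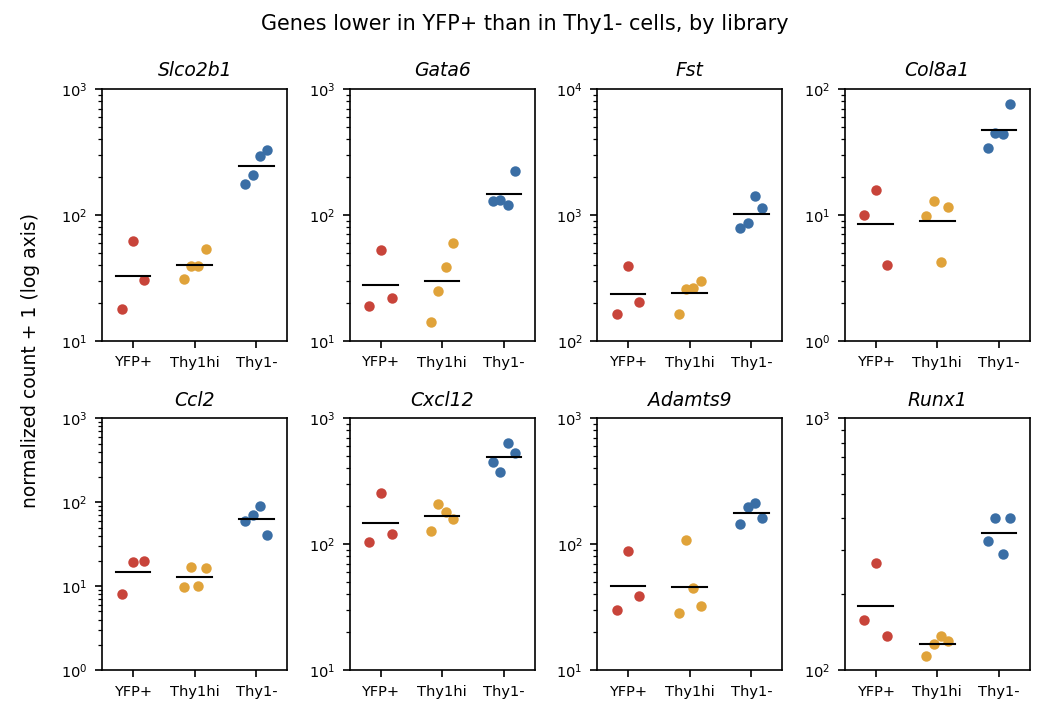
Each panel gives 1 gene in the 3 YFP+, 4 Thy1hi and 4 Thy1- libraries, as the normalized count plus 1 on a log axis whose range differs between panels, and the bar is the geometric mean. In all 8 panels every YFP+ library lies below every Thy1- library, and so does every Thy1hi library. YFP+ replicate 2 holds the highest YFP+ value in every panel but that of *Ccl2*.

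Among 29 tested genes listed for hair follicle stem cells, which the study sorted as Sca1- and CD34+, *Fst* and *Runx1* were called lower and none higher. At 9 of the 29 every YFP+ library lay below every Thy1- library, and the median was -0.59. Over all genes tested 0.301% were called lower and 6.03% lay below in this way. *Runx1*, a transcription factor of the follicle, stood at 156, 266 and 136 against 325, 399, 289 and 401 (-0.97 ± 0.23, limma adjusted p = 0.0443), and its relative *Runx2* at 22.9, 35.6 and 8.92 against 47.4 to 104 (-1.88 ± 0.42). *Sox9* stood at 694, 1112 and 486 against 1733 to 1823 (-1.30 ± 0.42, limma adjusted p = 0.13), *Krt79*, a keratin of the follicle's upper part, at 2045, 3049 and 492 against 1767 to 3552, and *Ccnd2* at 1357 to 1829 against 2168 to 4445. By fitted value 24 of the 29 were lower and 5 higher. *Postn*, also in this list, went the other way, at 1863, 2057 and 11026 against 615 to 1906 (1.46 ± 0.67). The summed level of all 31 genes was 9495 to 17199 in YFP+ and 12356 to 19123 in Thy1- libraries, so the ranges overlapped. That sum includes the 11026 of *Postn* in YFP+ replicate 3. The part of follicle cells in the lower genes was not tested.

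Signalling lists held few calls, as did all genes tested, of which 1.12% were called and 0.301% called lower. Of 41 tested BMP and TGF-beta genes only *Fst* was called, with a median of -0.29. Of 36 tested WNT genes only *Fzd7*, a WNT receptor, was called, at 168, 272 and 107 against 299, 572, 429 and 648 (-1.45 ± 0.33), with a median of -0.18. None of 12 Notch genes, 19 PDGF, VEGF and FGF genes, 30 immediate early and heat shock genes or 21 circadian genes was called, with medians of -0.29, -0.23, -0.20 and -0.36. *Notch1* stood at 2780, 4415 and 4111 against 4782 to 6559 (-0.64 ± 0.29), and *Jag1*, its ligand, at 1213 to 1560 against 1637 to 2909 (-0.62 ± 0.30). *Fgfr3* stood at 1122 to 1912 against 743 to 1023 (0.78 ± 0.31) and *Fgfr2* at 2187 to 2827 against 2300 to 3127 (-0.21 ± 0.33). *Jun* and *Fos*, early response genes that dissociation of tissue can switch on, stood at 8499 to 10207 and 6450 to 11138 in YFP+ cells against 12251 to 17277 and 5415 to 14599 in Thy1- cells.

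Markers of cells that could enter the sort were measured beside these results. T cell markers (25 in the table, 12 tested, none called, median -0.79) summed to 230 to 386 normalized counts in YFP+ libraries and to 402 to 605 in Thy1- libraries. *Cd3d* stood at 20.9, 48.8 and 42.6 against 39.4 to 92.4, *Cd3g* at 13.0 to 31.7 against 23.1 to 87.7, *Il2rb* at 24.9 to 41.0 against 38.2 to 50.8 and *Ptprc*, the pan-leukocyte antigen CD45, at 38.9 to 81.3 against 61.5 to 110. The T cell sum was thus lower in the population with Thy1. Langerhans cell markers (18, 15 tested, none called, median -0.71) summed to 861 to 1631 against 1282 to 2608, led by *Cd74*, *H2-Ab1*, *Mfge8* and *Cd207*. Fibroblast markers (15, 6 tested, median -0.73) summed to 162 to 316 against 181 to 315, with *Col1a1* at 3.96 to 65.0 against 18.9 to 57.2 and *Pdgfra* at 9.91 to 30.2 against 20.49 to 47.4, while *Dpp4*, which keratinocytes can also express, was called higher (1.45 ± 0.34). *Lum* and *Mfap5* had at most 3 reads in each of the 7 libraries. Melanocyte markers (12, 8 tested, none called) summed to 237 to 339 against 244 to 408, with *Mitf* at 60.4 to 106 against 86.3 to 171, *Dct* at 24.8 to 45.7 against 32.3 to 64.8 and *Gpnmb* at 47.2 to 198 against 38.6 to 55.5.

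For the other lists no gene was called. Neutrophil markers (21, 4 tested) summed to 130 to 214 against 89.1 to 228, with no read of *Elane* or *Retnlg*. Endothelial markers (12, 3 tested) summed to 43.6 to 101 against 58.2 to 172, with no read of *Cldn5*. Muscle markers (12, 3 tested) summed to 27.9 to 72.0 against 23.0 to 119, Schwann cell and neuron markers (12, 5 tested) to 623 to 770 against 768 to 1019, and erythroid markers (6, none tested) to 0 to 12.0 against 2.46 to 24.3. Sebaceous gland markers (15, 10 tested) summed to 1997 to 7096 against 1891 to 3659. None of the 5 sex-linked genes was called, and with their Y-linked members as a covariate 139 genes were called higher and 56 lower. The part of these cells in the differences was not tested.

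Thy1hi cells, integrin α6+, Sca1+ and Thy1hi and from wild-type mice in the methods, but labelled like the others with ages of 20 to 23 weeks, give the level of the same genes without the sort for YFP, and their 4 libraries stand here beside the others because both comparisons share the YFP+ or the Thy1- libraries. *Thy1* was at 511 to 775 in Thy1hi cells, within the range of the YFP+ libraries. *Stfa1* stood at 23.2, 21.1, 29.3 and 9.70 and *BC100530* at 92.7, 46.1, 82.9 and 33, above every Thy1- library and below every YFP+ library. *Krt6a* stood at 852, 701, 726 and 470 and *Tnc* at 306, 299, 603 and 167, close to the Thy1- libraries. *Sparc* stood at 732, 466, 381 and 752. The fibroblast markers were also higher in some Thy1hi libraries, with a sum of 273 to 2106 and *Col1a1* at 909, 387, 50.4 and 178, and their part in the level of *Sparc* there was not tested. *Slco2b1* (29.8 to 52.4), *Fst* (163 to 301), *Gata6* (13.2 to 59.2) and *Cxcl12* (127 to 209) were at the level of the YFP+ cells. In the same limma fit YFP+ and Thy1hi cells differed at 2 of the 14596 genes (0.0137%), *Tspan3* and *Slc16a6*. The fitted difference was 3.5 ± 0.79 for *Stfa1* (limma adjusted p = 0.127) and 3.15 ± 0.62 for *Krt6a* (limma adjusted p = 0.0912), large values that did not pass the test. *Tspan3*, a tetraspanin of the cell membrane, stood at 548, 385 and 621 in YFP+, at 181, 145, 202 and 129 in Thy1hi and at 70.5, 75.2, 82.8 and 73.0 in Thy1- cells, so that the 3 populations did not overlap. Against Thy1- cells its difference was 2.74 ± 0.25 (limma adjusted p = 1.1e-05), the smallest p of the comparison. *Epb41l3*, a protein that links the membrane to the cytoskeleton, was at 533, 415 and 838 in YFP+, 344 to 523 in Thy1hi and 106 to 170 in Thy1- cells (2.0 ± 0.28), and *Entpd7*, an enzyme that cleaves nucleoside triphosphates, at 160, 135 and 166, 64.5 to 91.9 and 42.6 to 70.6 (1.56 ± 0.24).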

How the data were processed

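Sorted epidermal cells were profiled by bulk RNA-seq. Alignment to mm10 with STAR, counting over Ensembl genes with featureCounts and normalization with DESeq2 were done by the authors; tool versions are not given in the sources used here. The signal per gene that they deposited is thus a normalized count, whole reads divided by 1 size factor per library (0.822 to 1.29 in the 7 libraries), and whole reads came back for 100% of values within the rounding to 2 decimals. Reads were not processed again. Counting error and PCR copies cannot be separated without molecular identifiers. The labels mention an mRNA kit and a stranded total RNA kit without saying which library used which.

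The column of Thy1- replicate 4 follows the order of gene names with hyphens ignored, which moves 3212 genes. It was put back: at the 1130 tested genes among them its correlation with the mean of the other libraries rose from 0.0473 to 0.936, while the other 6 libraries had 0.949 to 0.978 as deposited. The place of 3 tested genes stays uncertain, since they share a name once hyphens are dropped.

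Genes reaching 10 in 3 or more of the 7 libraries were tested with limma 3.58.1 (trend) on log2(value + 1), all 20 libraries of 5 populations in 1 fit, with a test in both directions, adjusted by Benjamini-Hochberg over all genes tested, with 0.05 as the threshold. An exact permutation test of 3 against 4 libraries cannot go below p = 0.0571 and was not used for calls. Floors are 3 reads per library. Alternatives were edgeR 4.0.16 and DESeq2 1.42.0 on whole reads, other pseudocounts, filters, scalings, covariates, blocks and each library left out. Fits were tested on simulated counts. Software was R 4.3.3 and Python 3.11.15.

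Genes were named by rule: Thy1, Stfa1, BC100530 and Sparc, the 15 largest called changes per direction without overlap between libraries and without clone names, and up to 6 called members per list, or the 2 with the highest counts where none was called (4 for other cell types, of which only some lists are given by gene). Of 36 lists, 5 were added after the values were seen, and so were the genes named outside the rule (Tspan3, Slc16a6, Epb41l3, Entpd7, Has3, Mlkl, Ass1, Cad, Xdh, Krt6b, Krt16, Krt17, Mmp13, Areg, Il24, Ly6a, Itga6, Itgb4, Lrig1, Mki67, Top2a, Cxcl12, Ntrk2, Runx2, Rgs10 and Ahr). Some genes that the rule names are not reported here. The members and lists were chosen with earlier results of these data known.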

Additional observations from a re-analysis of the deposited data

Results flagged for a closer look

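In the 4 Thy1- libraries, 12 named genes had 1 library set apart from the other 3 by Dixon's criterion, which chance meets in about 1 of 20 groups, and 123 genes were examined. Thy1- replicate 4 held the high value of *Ass1* (134), *Ddost* (216), *Fos* (14599), *Gata6* (223) and *Jun* (17277). Thy1- replicate 2 held that of *Cad* (373), *Krt6b* (250), *Mmp1b* (8.10), *Gm5416* (2.31) and *Trpm1* (39.3). *Stfa2* had its only reads in replicate 3 (1.58), and *Areg* was low in replicate 1 (89.99).

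*Tspan3* and *Slc16a6* differed between YFP+ and Thy1hi cells, with log2 differences of 1.647 and 1.641 (SE 0.25 for each, limma adjusted p = 0.0202 for each), YFP+ higher in 3 of 3 libraries. *Slc16a6*, a monocarboxylate transporter, stood at 104, 83.6 and 94.1 in YFP+, at 22.4 to 44.7 in Thy1hi and at 50 to 62.3 in Thy1- cells, where its difference from YFP+ cells was 0.72 ± 0.25 (limma adjusted p = 0.176).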

How the results depend on the processing

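Against 119 genes called higher and 44 lower, the counts were 50 and 18 without a filter, 37 and 24 with the same total, 193 and 86 with quantile normalization, 393 and 176 with DESeq2, 65 and 35 with genes detected as a covariate (added after the data were seen), 160 and 38 with edgeR, and between 90 and 169 higher and between 37 and 56 lower under the other alternatives without a block. Leaving out 1 library gave 8 to 173 higher and 3 to 144 lower genes. All 163 called genes were also called by DESeq2 and 153 by edgeR. With only the 2 populations in the limma fit, 111 genes were called higher and 37 lower, and only 77 of these 148 were among the 163. Many calls thus depended on which populations were in the fit. Whether replicate numbers pair the populations cannot be told from so few libraries. Deviations of same-numbered YFP+ and Thy1- libraries correlated at -0.144, 0.302 and 0.0807 for numbers 1, 2 and 3. Only YFP+ replicate 2 correlated best with its own number. Replicate 3 of both populations had Thy1hi replicate 3 as its nearest library, but so had YFP+ replicate 2. Thy1- replicate 1 was nearest to Thy1hi replicate 2. With the replicate block the counts were 360 and 383 (2 populations) and 453 and 336 (all libraries), and these held 139 and 163 of the 163 called genes. Directions that reversed were those of *Fos* (-0.023 with the replicate block over all libraries, -0.37 with genes detected), *Col1a2* (0.055 with genes detected), *Notch1* (2.5) and *Ntrk2* (0.32) in the deposited row order, *Ptprc* (0.098 without YFP+ replicate 1, -0.42 to 0.098 with 1 library left out) and *Klf5* (0.040 without Thy1- replicate 1, -0.30 to 0.040 with 1 left out); of these only *Ntrk2* was called. The other 79 called genes named kept their direction in every one of the 22 alternatives that gave a value (19 had none in 1 alternative). The cause of these shifts was not tested, apart from the fewer or more genes and libraries in a fit. At genes with few reads, depth limits what can be told.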
